A study of Mus musculus with 3 samples.

Results

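The loci of 5 genes that respond to Wnt signals or drive growth, Axin2, Lef1, Myc, Mycn and Ccnd1, were examined for Notch2 binding in the embryonic mouse kidney. Their members were the Notch2 ChIP-seq peaks with any base within 100 kb of the position of each gene on the mm9 build. They numbered 21 of the 28651 peaks of replicate 1 and 6 of the 12585 peaks of replicate 2. In chromatin immunoprecipitation with sequencing (ChIP-seq), an antibody pulls down DNA fragments bound by a protein, and a peak is a region with an excess of sequenced fragments. The study has 2 immunoprecipitations of whole kidney at E16.5 with an anti-Notch2 antibody, called replicate 1 and replicate 2, and 1 input sample, which was not analysed here. All samples carry the same label of tissue and stage, and the sources used here name no strain, genotype or pooling of embryos. Nothing in the labels ties the replicates to separate animals, so differences between them may be technical. A peak in whole kidney does not tell in which of its cells Notch2 was bound.

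Wnt ligands stabilise β-catenin, which enters the nucleus and activates genes together with DNA-binding factors of the TCF/LEF family. In the developing kidney, Wnt signals from the ureteric bud set nephron progenitors on the way to differentiation. Notch signalling acts in the formation of the nephron, including its patterning, through the cleaved receptor and its DNA-binding partner RBPJ. Axin2 is a scaffold of the complex that degrades β-catenin and is a widely used readout of the pathway, since its own transcription rises with Wnt signals. Lef1 is a DNA-binding partner of β-catenin. Myc and Mycn are related transcription factors that promote growth and proliferation, and Ccnd1 encodes a D-type cyclin that drives cells into the division cycle.

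The positions used were 108.78 to 108.81 Mb of chromosome 11 for Axin2 and 130.81 to 130.93 Mb of chromosome 3 for Lef1. Myc was placed at 61.817 Mb of chromosome 15, Mycn at 12.943 Mb of chromosome 12 and Ccnd1 at 152.12 Mb of chromosome 7. They are rounded to 1 kb for Myc and Mycn and to 10 kb for the other genes, so short distances carry an error of that order. Myc, Mycn and Ccnd1 were each given as a single point without length. Which part of the gene that point marks is not stated. Distances at these genes are therefore measured to the point, and the distance to the gene body or its start may differ by the length of the gene. The windows measured 230 kb for Axin2, 320 kb for Lef1 and 200 kb for each of the others, or 1.15 Mb in all. The lists give no peak height or count, so the depth behind each peak is unknown. Width and place in the file are the only measures of a peak besides its position. No source used here tells what sets the order of the file.

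Promoter sequences are shown for the members with an entry in the RefSeq table of GRCm38.p6, which were Axin2, Lef1 and Mycn. Each is the 250 bases before an annotated start, and no peak is known to lie on it. Capitals mark matches to the TCF/LEF motifs CTTTGAT or CTTTGTT or CTTTGAA or to the RBPJ core TGGGAA, searched on both strands.
Axin2 (chr11:108920099-108920348, plus strand): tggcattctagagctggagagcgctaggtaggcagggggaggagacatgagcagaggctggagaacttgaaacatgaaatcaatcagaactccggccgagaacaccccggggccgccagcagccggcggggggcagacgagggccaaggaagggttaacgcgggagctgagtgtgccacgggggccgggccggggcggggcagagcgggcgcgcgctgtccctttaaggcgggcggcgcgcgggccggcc
Lef1 (chr3:131110047-131110296, plus strand, the first of 4 entries): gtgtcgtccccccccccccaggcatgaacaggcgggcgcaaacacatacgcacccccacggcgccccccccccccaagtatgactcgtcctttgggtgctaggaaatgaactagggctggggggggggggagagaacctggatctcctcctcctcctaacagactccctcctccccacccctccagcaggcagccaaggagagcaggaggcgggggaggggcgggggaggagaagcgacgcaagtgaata
Mycn (chr12:12941837-12942086, minus strand): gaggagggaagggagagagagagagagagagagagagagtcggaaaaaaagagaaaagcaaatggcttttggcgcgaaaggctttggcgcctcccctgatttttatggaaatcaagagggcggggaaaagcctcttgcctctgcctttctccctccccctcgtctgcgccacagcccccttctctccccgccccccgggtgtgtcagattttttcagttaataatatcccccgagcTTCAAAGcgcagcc
The Mycn promoter held 1 match, TTCAAAG, which is CTTTGAA on the other strand and begins 14 bases before the start. The Axin2 promoter and the 4 Lef1 entries held no match to any of the 4 motifs. Over all 32851 promoters of the table, 3954 held at least 1 of the TCF/LEF motifs and 7094, or 21.6%, held TGGGAA. These coordinates belong to GRCm38.p6 and the peaks to mm9, so that the peaks were not placed on these letters.

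Peaks were found at all 5 loci in replicate 1 and at 3 of them in replicate 2, and 5 pairs of peaks were shared by the replicates. In replicate 1 there were 6 peaks at Lef1, 6 at Ccnd1, 5 at Mycn, 3 at Axin2 and 1 at Myc. In replicate 2 there were 4 at Lef1, 1 at Mycn, 1 at Ccnd1 and 0 at Axin2 and at Myc. Together the 2 lists marked 22 separate regions. The loci held 18.3 peaks per Mb in replicate 1, against 11.2 over the whole list, and 5.22 per Mb in replicate 2, against 4.92. The number at every locus was below the 95th percentile of genome windows of the same length in both replicates.

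**Figure D1:**
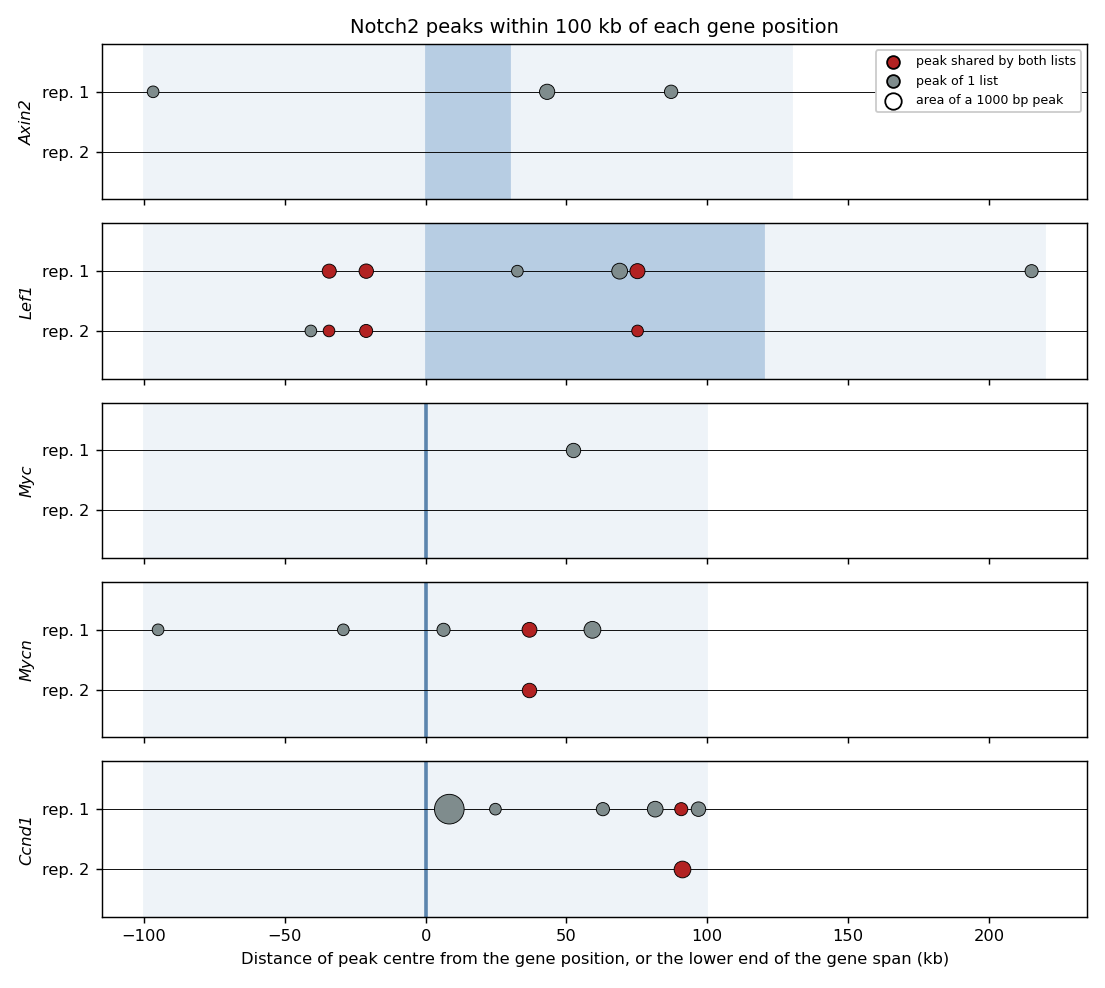
Notch2 peaks at the 5 loci, with the distance of the peak centre from the gene position or the lower end of the gene span in kb on the x axis and the replicates as rows. Circle area is proportional to peak width, dark shading is the gene span and light shading the window of 100 kb on either side. Lef1 holds 3 of the 5 shared peaks, and the largest circle is the 3233 bp peak of replicate 1 beside Ccnd1.

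The share of peaks found in both replicates was lower at these loci than in the whole list of replicate 1, and higher than in that of replicate 2. Peaks were called shared where they overlapped by at least 1 bp. Of the 21 replicate 1 peaks at the loci, 5 were shared (23.8%, 95% Wilson interval 10.6 to 45.1%), against 33.0% of the whole list. Of the 6 replicate 2 peaks, 5 were shared (83.3%, 43.6 to 97.0%), against 75.5% of the whole list. Both intervals, which cover counting error only, include the share of the whole list. They are too wide to show that the shares are alike. The 5 shared pairs lay at Lef1 (3 pairs), Mycn (1 pair) and Ccnd1 (1 pair).

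For each locus the background was the set of windows of the same length laid end to end between the outermost peaks of each chromosome. There were 12785 windows of 200 kb, which held a mean of 2.25 peaks of replicate 1 and 0.987 of replicate 2. These windows include gene-poor stretches, and they describe where a count lies without testing it.

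**Figure D2:**
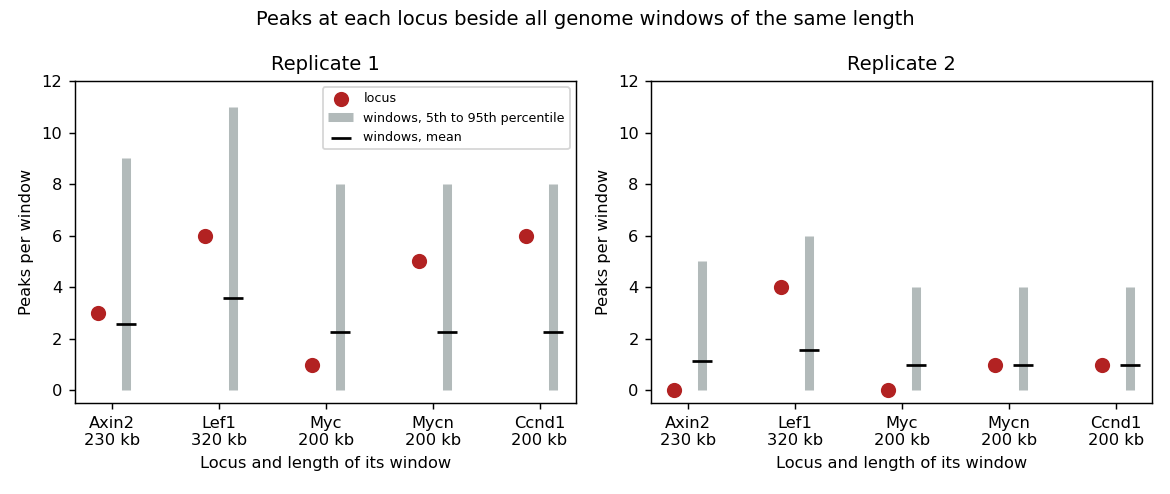
Number of peaks in the window of each locus (red points) beside genome windows of the same length (grey bar from the 5th to the 95th percentile, black mark at the mean), for replicate 1 and replicate 2. No locus lies above the grey bar.

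Lef1 had the most shared pairs within 100 kb, in the longest of the windows. Its window held 6 peaks in replicate 1, and 75.4% of the 7988 windows of 320 kb held fewer. It held 4 peaks in replicate 2, and 85.1% of those windows held fewer. In the first 50% of the file 1 of these 4 was left, and 63.3% of windows held fewer. Among the peaks of both lists, 3 pairs were shared, 2 on the lower side of the gene and 1 within its span. Shared pairs were not counted in the windows of 320 kb, so how usual 3 pairs are is not known. Lef1 is on the plus strand, so its lower side is the upstream one.

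The nearest upstream pair of Lef1 ran from 130788537 to 130789296 on chromosome 3 in replicate 1 and from 130788568 to 130789193 in replicate 2, about 20.7 kb from the gene span. It measured 760 bp at place 6774 in replicate 1 and 626 bp at place 4147 in replicate 2, and the centres were 36 bp apart. This was the earliest of the 4 Lef1 peaks in the replicate 2 file. The second upstream pair ran from 130775411 to 130776138 in replicate 1 (728 bp) and from 130775444 to 130775943 in replicate 2 (500 bp). It lay 33.9 kb from the span in replicate 1. Its places differed, at 24291 of 28651 in replicate 1 and 6650 of 12585 in replicate 2, so that it stood in the last 25% of replicate 1 and near the middle of replicate 2. Within 200 kb Lef1 had 4 shared replicate 1 peaks, and Mycn and Ccnd1 had 5 each.

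The pair within the Lef1 span ran from 130884798 to 130885629 in replicate 1 (832 bp, place 12946) and from 130885005 to 130885504 in replicate 2 (500 bp, place 8751), with centres 41 bp apart. In all 3 pairs the replicate 2 peak lay wholly inside the replicate 1 peak. The unshared replicate 1 peak from 130878435 to 130879354 (920 bp, place 7404) was the widest at the locus and lay 5.44 kb from this pair. A further replicate 1 peak within the span, from 130842330 to 130842829, measured 500 bp and stood at place 21414. No peak of either list lay within 10 kb of the lower end of the span.

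The remaining replicate 1 peak of Lef1 lay 94.9 kb beyond the upper end of the span, from 131024862 to 131025489. The unshared replicate 2 peak ran from 130769000 to 130769499 (500 bp, place 7485), 5.91 kb from the nearest replicate 1 peak. That was the only peak of replicate 2 at the 5 loci without a counterpart.

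Axin2 had no peak in either list within 10 kb of its span and none of replicate 2 in its window. Fewer than its 3 replicate 1 peaks were found in 61.4% of the 11112 windows of 230 kb, and 52.4% of those windows held 0 peaks of replicate 2, as Axin2 did. The nearest ran from 108822717 to 108823569 on chromosome 11 (853 bp, place 12359), 12.7 kb beyond the upper end of the span, which is downstream of this plus-strand gene. The second ran from 108866839 to 108867498 (660 bp, place 13384), 56.8 kb beyond that end. The third, from 108682982 to 108683481 (500 bp, place 13497), lay 96.5 kb on the other side. All 3 stood near the middle of the file, at 43.1 to 47.1% of the list.

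Myc had the fewest peaks. Its window held 1 peak of replicate 1, from 61869013 to 61869771 on chromosome 15 (759 bp), 52.0 kb on the higher side. It stood at place 26965, or 94.1% of the list. Of the windows of 200 kb, 32.9% held 0 peaks of replicate 1 and 56.1% held 0 peaks of replicate 2, as Myc did. The nearest peak of replicate 2 lay 105 kb from the gene position, from 61711053 to 61711552, and also stood late in its file, at place 12029.

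Mycn, on the minus strand, had 5 peaks in replicate 1, and 83.5% of windows of 200 kb held fewer. It had 1 peak in replicate 2, where 56.1% of windows held 0. The peak nearest the gene position ran from 12949042 to 12949674 on chromosome 12 (633 bp, place 15614). It lay 6.04 kb from that point on the higher side, which is the side of the 5′ end. How far it lay from the start of the gene is not known. It was found in replicate 1 alone, and the nearest replicate 2 peak was 29.7 kb from it.

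The shared pair of Mycn lay on the same side. It ran from 12979475 to 12980283 in replicate 1 (809 bp, place 5995) and from 12979386 to 12980152 in replicate 2 (767 bp, place 4798), 36.5 and 36.4 kb from the gene position. Its replicate 1 peak stood the earliest of the 5 shared replicate 1 peaks. An unshared replicate 1 peak from 13001708 to 13002748 was wider (1041 bp) and earlier (place 5131). The other 2 replicate 1 peaks of Mycn measured 500 bp, lay 29.0 and 94.8 kb on the lower side and stood at places 19283 and 25281.

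Ccnd1 had 6 peaks in replicate 1, and 88.9% of windows of 200 kb held fewer. It had 1 in replicate 2, where 56.1% of windows held 0. All 6 replicate 1 peaks lay on the higher side of the gene position. Which end of the gene this side faces is not given here. The peak nearest that position ran from 152126792 to 152130024 on chromosome 7. It began 6.79 kb from a single point that is itself rounded to 10 kb, so its distance from the start of the gene is not known. It measured 3233 bp and stood at place 779, so that it was the widest and the earliest of all peaks at the 5 loci. Its width had rank 31 among the 28651 replicate 1 peaks.

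This wide Ccnd1 peak had no counterpart in replicate 2, where the nearest peak lay 80.6 kb away. Among the first 779 peaks of the replicate 1 file, 94.7% were shared and 41 were not. Among the 31 peaks at least as wide, 9 were unshared. It was thus among the few early peaks found in replicate 1 alone. On chromosome 7 as a whole, 29.0% of the replicate 1 peaks were shared.

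The shared pair of Ccnd1 lay far from the gene, at 90.5 kb in replicate 1 and 90.6 kb in replicate 2. It ran from 152210457 to 152211084 in replicate 1 (628 bp, place 17736) and from 152210648 to 152211676 in replicate 2 (1029 bp, place 5933). It was the only shared pair at the loci that was wider in replicate 2, and its centres lay 392 bp apart, against 36 to 110 bp in the other pairs. Unshared replicate 1 peaks flanked it from 152201070 to 152201974 (905 bp, place 6483) and from 152216493 to 152217265 (773 bp, place 7559). The last 2 replicate 1 peaks, at 24.5 and 62.6 kb, measured 500 and 642 bp and stood at places 26515 and 26138.

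Other genes lie beside the members, and no peak was assigned to a gene. In the RefSeq table the nearest protein-coding neighbours are Cep112 and Rgs9 for Axin2, Rpl34 and Hadh for Lef1, A1bg and Gsdmc for Myc, Cyria and Ddx1 for Mycn, and Fgf15 and Tpcn2 for Ccnd1. LTO1 overlaps Ccnd1 there.

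Peaks at the loci were middling in width and place. In replicate 1 their median width was 728 bp, against 637 bp over the list, and 5 of 21 measured 500 bp, the narrowest width of either list (23.8%, against 31.8%). In replicate 2 their median width was 563 bp, against 626 bp, and 3 of 6 measured 500 bp, against 47.9% of the list. In replicate 1, 5 peaks stood in the first 25% of the file and 5 in the last 25%. In replicate 2 none of the 6 stood in the first or the last 25%. Shared replicate 1 peaks at the loci had a median width of 760 bp (628 to 832 bp, n = 5) and unshared ones 651 bp (500 to 3233 bp, n = 16), and their ranges overlapped. None of these peaks was listed more than once.

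**Figure D3:**
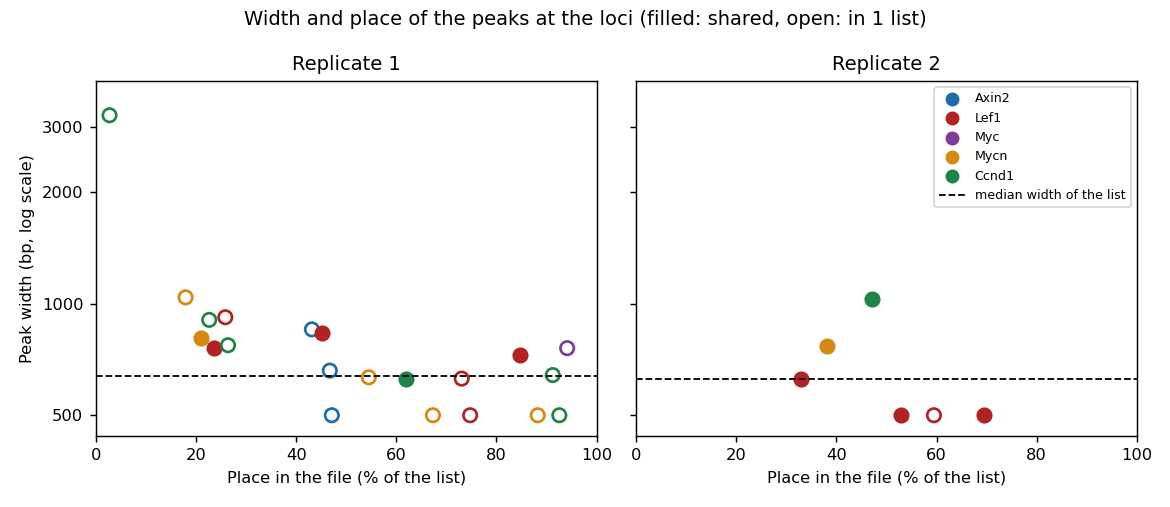
Peak width in bp (log scale) against place in the file, as a percentage of the list, for the 21 replicate 1 peaks and the 6 replicate 2 peaks at the loci. Filled circles are shared peaks, open circles peaks of 1 list, and the dashed line is the median width of the whole list. The open green circle at the upper left is the 3233 bp peak of Ccnd1, at place 779.

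Over the 5 loci together, replicate 1 peaks lay near to and far from the genes in about the shares that the length of the windows gives. In replicate 1, 5 of 21 (23.8%) lay within 10 kb of a gene position or span, 3 of them inside the span of Lef1, and this zone made up 21.7% of the windows. A further 10 (47.6%) lay more than 50 kb away, in a zone of 43.5% of the windows. In replicate 2, 1 of 6 lay within 10 kb, inside the span of Lef1, and 1 lay more than 50 kb away. Single genes differed, and a replicate 1 peak as near to the middle of a window of 200 kb as the nearest was to Mycn was present in 11.8% of those windows, and as near as to Ccnd1 in 13.0%. No peak within 10 kb of the position or span used for Axin2, Myc, Mycn or Ccnd1 was shared by the replicates. Where the members end at 100 kb, the last peaks inside lay at 96.5 kb for Axin2 and Ccnd1, 94.9 kb for Lef1, 94.8 kb for Mycn and 52.0 kb for Myc in replicate 1. The first beyond lay at 126 kb for Axin2, 104 kb for Lef1, 107 kb for Myc, 112 kb for Mycn and 164 kb for Ccnd1.

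Wider surroundings were examined after the data were seen. Pooled over the 5 genes, the zone from 100 to 200 kb held more peaks per Mb than the windows in both replicates. Single genes differed. Between 100 and 200 kb the replicate 1 count rose from 5 to 13 at Mycn, 6 to 14 at Ccnd1, 3 to 9 at Axin2 and 1 to 4 at Myc. At Lef1 it rose only from 6 to 8, and in replicate 2 only from 4 to 5. From 100 to 200 kb there were 27.0 replicate 1 peaks per Mb (27 peaks) and 16.0 replicate 2 peaks per Mb (16 peaks). From 200 to 500 kb there were 17.9 (51 peaks) and 9.82 per Mb (28 peaks), so that this zone was above the windows in replicate 2 but not in replicate 1, where the windows held 18.3. In replicate 2 the windows were close to the density of the whole list, and both outer zones were above it. Of the replicate 1 peaks, 44.4% were shared from 100 to 200 kb (95% Wilson interval 27.6 to 62.7%) and 45.1% from 200 to 500 kb (32.3 to 58.6%), against 33.0% of the whole list. Both intervals include the share of the whole list. Of the replicate 2 peaks, 81.25% were shared from 100 to 200 kb and 82.1% from 200 to 500 kb. In replicate 2 the share was 83.3% in the windows and 75.5% over the whole list. Peaks near each other are not independent, and these differences were not tested. The zone around Ccnd1 was limited to 350 kb on its higher side by the last peak of chromosome 7.

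**Figure D4:**
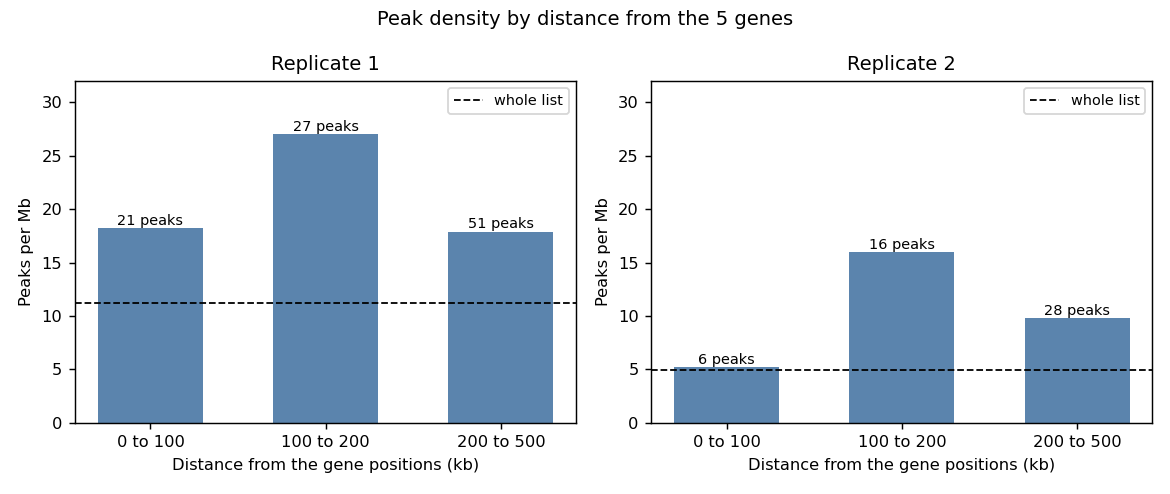
Peaks per Mb by distance from the 5 gene positions in kb, for replicate 1 and replicate 2, with the number of peaks above each bar. The dashed line is the density of the whole list, 11.2 per Mb in replicate 1 and 4.92 in replicate 2. In both replicates the bar from 100 to 200 kb, pooled over the 5 genes, is the highest.

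The earliest shared pair within 500 kb of each of the 5 genes lay outside its window. For Axin2 and Myc, whose windows held no shared pair, it could lie nowhere else. Within 500 kb there were 40 shared pairs, 5 of them within 100 kb. The earliest places of those 5 were 5995 in replicate 1 and 4147 in replicate 2. The earliest pair of Mycn, by the sum of its relative places, began 112 kb on the higher side, from 13054683 to 13057189 in replicate 1 (2507 bp, place 107) and from 13055050 to 13055817 in replicate 2 (768 bp, place 264). A pair as early in both lists was present in 2.51% of windows of 1000 kb.

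The earliest pair of Ccnd1 began 193 kb on the higher side, from 152312969 to 152314291 in replicate 1 (1323 bp, place 304), and stood at place 216 in replicate 2 with 1049 bp. A pair as early in both lists was present in 3.96% of windows. That of Axin2 lay 137 kb on the lower, upstream side, from 108641794 to 108642547 in replicate 1 (754 bp, place 693), and measured 764 bp at place 1036 in replicate 2 (12.1% of windows of 1030 kb). That of Myc lay 411 kb on the higher side, from 62228217 to 62229141 in replicate 1 (925 bp, place 3299), and measured 628 bp at place 966 in replicate 2 (18.7% of windows). That of Lef1 lay 237 kb on the higher side, from 131166509 to 131167981 in replicate 1 (1473 bp, place 3666), and measured 638 bp at place 4135 in replicate 2 (42.2% of windows of 1120 kb). These percentages count windows with a pair at least as early in both lists. A window whose pair had a smaller sum of places but stood later in 1 list was not counted. By the sum, the percentages would be at least as high. Each pair was picked as the earliest of its gene after the data were seen, so the percentages are a description and no test. The zones beyond 100 kb are also wider than the windows.

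The surroundings of the 5 genes differed in how peaks were laid out. The 7 shared pairs of Myc began 172 kb away, and within 500 kb Myc had 15 peaks in replicate 1 and 13 in replicate 2. Axin2 had 16 and 3 over the same distance, Lef1 20 and 10, Mycn 22 and 14, and Ccnd1 26 and 10. These zones measure 1000 to 1120 kb, and the whole lists held 11.2 peaks per Mb in replicate 1 and 4.92 in replicate 2. The counts were not set beside genome windows of that length, so how usual they are is not known. Of the 11 pairs of Mycn, 10 lay on the higher side. For comparison, the whole lists held 28651 peaks in replicate 1 and 12585 in replicate 2. The counts were 1693 and 548 on chromosome 11, which holds Axin2, and 1254 and 569 on chromosome 15, which holds Myc. They were 1673 and 831 on chromosome 3 (Lef1), 1236 and 567 on chromosome 12 (Mycn) and 1474 and 566 on chromosome 7 (Ccnd1).

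**Figure D5:**
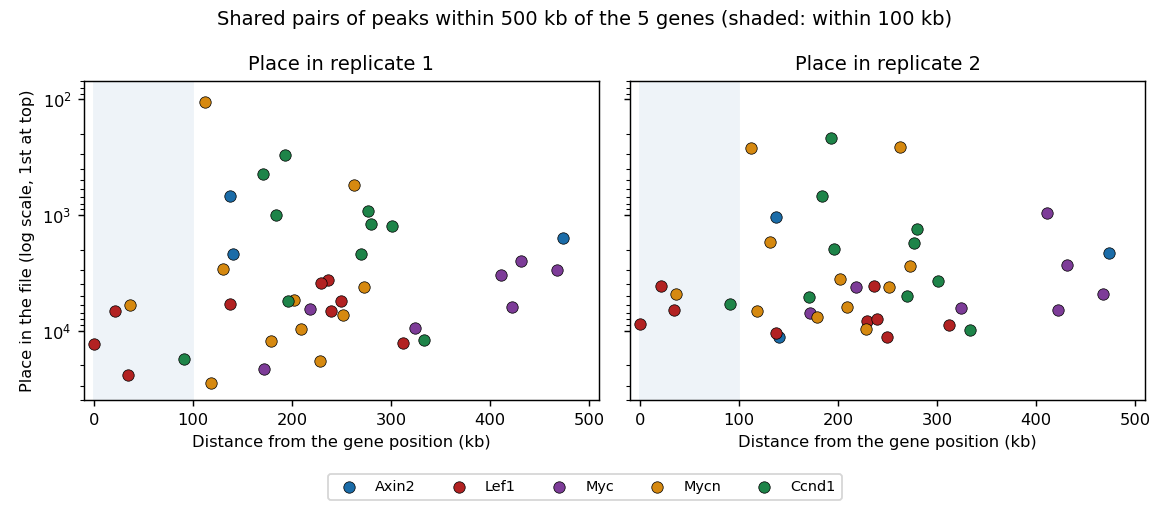
Place in the file (log scale, the first place at the top) of the 40 shared pairs within 500 kb of the 5 genes against distance in kb, for replicate 1 and replicate 2. Light shading marks the first 100 kb, and the earliest points, at places 107 and 304 in replicate 1, lie outside it.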

How the data were processed

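The authors deposited 1 peak list for each of the 2 Notch2 immunoprecipitations, with 3 columns for chromosome, start and end, and no score or count. The submitters' processing notes name Bowtie, SAMtools and HOMER, with no version, and the build mm9. How peaks were called and whether the input was used is not given there. Rows repeated within a list were counted once, and place is the order of the remaining rows. Positions are counted from 1. The gene positions, members and comparisons were chosen with earlier results of these data known. At each locus the rule was to name every shared pair, every peak within 10 kb and the earliest unshared peak. Zones and pairs up to 500 kb were added after the data were seen. Further Wnt pathway genes and the sequence under the peaks are not analysed here, for want of mm9 positions and sequence. Background windows were laid end to end, without the remainder at chromosome ends. With 1 group of 2 lists no test between groups was made. A deeper library can list more and weaker peaks, but the read depth here is unknown and its part in the unequal lists was not tested. Overlap and window counts were tested on 20 simulated lists against bedtools 2.31.1. Python 3.11.15 was used with pandas 2.3.3, numpy 2.4.6, matplotlib 3.10.9 and scipy 1.17.1.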

Additional observations from a re-analysis of the deposited data

How the results depend on the processing

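The counts at the 5 loci followed the distance by construction. Within 10, 50, 200 and 500 kb there were 5, 11, 48 and 99 peaks of replicate 1 and 1, 5, 22 and 50 of replicate 2. Shared peaks then numbered 1, 4, 17 and 40 in replicate 1 and 1, 4, 18 and 41 in replicate 2, and merged regions 5, 12, 52 and 108. In the first 50% of each list in file order, 11 and 3 peaks were left, with 2 shared. In the upper 50% by width, 13 and 2 were left, with 1 shared. With replicate 1 limited to the length of replicate 2, 8 of its peaks were left and 2 were shared, so that 3 of the 5 shared pairs rest on the later part of the replicate 1 list. Centres within 100 bp left 3 shared pairs, and overlap of 50% of both peaks left 4. Merged regions ranged from 6 to 21 when either replicate was left out. Counting repeated rows or using peak centres, run on the peaks and shared peaks within 100 kb, changed none of those counts. Of 31 alternative values for the percentage of windows with at least as many peaks as a locus, 22 fell outside the 95% Wilson interval over windows of the value from all windows. That interval is narrow and treats neighbouring windows as independent, so this count does not measure the size of the shifts. Leaving out windows without any peak raises the percentage by construction. The first 50% of the lists gave 81.7% of windows with fewer replicate 1 peaks than Axin2, against 61.4% for the whole lists. It gave 72.9% for Mycn in replicate 1, against 83.5%, and 63.3% for Lef1 in replicate 2, against 85.1%. On chromosome 11 alone 49.4% of windows held fewer than Axin2 in replicate 1. Of the 3 Lef1 pairs, 1 was left with replicate 1 limited to its first 12585 peaks, as many as at Mycn. The cause of these shifts beyond fewer peaks or windows was not tested. No paired analysis was possible because the only 2 lists belong to 1 group. Since read depth is unknown, a peak absent from 1 list may lie under its threshold.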
